A study of Mus musculus with 4 samples.

Results

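The cytosolic sulfotransferases and the enzymes that make their cofactor were compared between livers of wild type (WT) and Nrg4 knockout (KO) male mice. The set holds 10 genes, namely 8 sulfotransferases (Sult1a1, Sult1b1, Sult1c2, Sult1d1, Sult1e1, Sult2a8, Sult2b1 and Sult5a1) and the 2 cofactor synthases Papss1 and Papss2, among 22180 genes that had a probe set paired with 1 symbol. The genes were selected on the KO minus WT differences of these same arrays, among them that of Sult1e1. Their differences are therefore given as a description, and the limma calls among them, given below, are no test of these genes. Each of the 10 had 1 such probe set. For other genes with several, the one whose mean over the 4 arrays was highest was used.

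Nrg4 encodes neuregulin 4, a hormone-like protein related to epidermal growth factor that binds ErbB receptors. All mice, WT and KO alike, received a NASH diet (one that brings on non-alcoholic steatohepatitis) for 20 weeks, beginning at 3 months of age, and were killed in the fed state. Each Mouse Gene ST 2.1 array held pooled liver RNA, with 2 pools per genotype. The sources used here do not give the strain, the number of animals in a pool or how the Nrg4 allele was disrupted. Each SD below is the spread between the 2 pools of a genotype. Each SE is that of limma, which pools the spread of both genotypes and moderates it toward the variance of all tested genes.

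Cytosolic sulfotransferases transfer a sulfonate group from the donor PAPS (3′-phosphoadenosine 5′-phosphosulfate) to hydroxyl or amino groups of hormones, bile acids, neurotransmitters and drugs, which as a rule makes them more soluble and less active. PAPS is made from sulfate and ATP by the bifunctional synthases Papss1 and Papss2. In mouse liver several of these genes differ between the sexes and respond to nuclear receptors such as the constitutive androstane receptor.

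The promoters of the 4 sulfotransferases with the lowest KO levels relative to WT are printed here, because 3 of them (Sult1b1, Sult1d1 and Sult1e1) are neighbours on chromosome 5. Sequences are those of RefSeq on build GRCm38.p6, run from 250 bases before to 50 bases after the first start listed, are from the minus strand and read 5′ to 3′. Sult1b1 and Sult2a8 have 2 starts listed. Capitals mark matches, on either strand, to the nuclear receptor core motif AGGTCA or to the forkhead motif TGTTTNC. No 2 matches overlap.
Sult1e1 promoter, chr5:87591562-87591861: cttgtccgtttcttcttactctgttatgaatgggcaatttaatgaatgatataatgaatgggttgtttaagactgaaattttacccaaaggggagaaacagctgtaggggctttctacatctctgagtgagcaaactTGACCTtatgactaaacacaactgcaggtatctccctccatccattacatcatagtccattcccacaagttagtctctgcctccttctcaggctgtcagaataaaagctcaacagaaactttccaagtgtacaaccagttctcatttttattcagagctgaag
Sult1d1 promoter, chr5:87568957-87569256: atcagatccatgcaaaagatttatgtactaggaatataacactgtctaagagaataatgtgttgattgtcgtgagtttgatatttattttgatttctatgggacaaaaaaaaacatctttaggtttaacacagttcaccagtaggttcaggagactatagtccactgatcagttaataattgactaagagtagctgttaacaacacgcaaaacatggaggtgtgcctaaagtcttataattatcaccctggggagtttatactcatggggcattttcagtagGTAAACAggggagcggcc
Sult1b1 promoter, chr5:87538146-87538445: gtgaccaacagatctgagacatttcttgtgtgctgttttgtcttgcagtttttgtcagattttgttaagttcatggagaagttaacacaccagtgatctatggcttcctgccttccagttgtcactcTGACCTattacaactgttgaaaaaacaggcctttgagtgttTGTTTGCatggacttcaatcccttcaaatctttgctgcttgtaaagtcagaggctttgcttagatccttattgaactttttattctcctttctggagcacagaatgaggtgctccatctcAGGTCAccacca
Sult2a8 promoter, chr7:14446538-14446837: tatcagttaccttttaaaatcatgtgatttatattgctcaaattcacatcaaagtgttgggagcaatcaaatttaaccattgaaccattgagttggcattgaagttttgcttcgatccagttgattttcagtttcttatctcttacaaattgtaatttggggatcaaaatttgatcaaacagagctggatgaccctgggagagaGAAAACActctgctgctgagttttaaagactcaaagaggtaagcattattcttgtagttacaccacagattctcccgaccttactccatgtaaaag
The receptor motif was found in the windows of Sult1e1, from 113 to 108 bases before the start, and of Sult1b1, from 123 to 118 bases before it and from base 39 to 44 after it. These were 2 of the 10 promoters of the set, while 16% of the 27025 promoters of the same length in the table hold this motif. The forkhead motif was in 4 of the 10, Sult1a1, Sult1b1, Sult1d1 and Sult2a8, against 20.5% of all promoters. The STAT motif TTCNNNGAA was in 0 of the 10 windows and in 8.47% of all promoters. A match of letters is a description and shows no binding.

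Nrg4 itself had WT log2 levels of 2.54 and 2.30 and a level of 0.93 in each KO pool, a difference of -1.49 ± 0.20 (SE). In the fit of all 22180 genes its limma adjusted p was 0.182. The KO level exceeded the median of all probe sets by 0.39, too little for a fold. It is unknown here whether the probe set covers the disrupted part. Levels are deposited log2 values whose zero point is unknown, and the median of all probe sets (0.54) marks the level of a typical dim probe set.

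Sult1e1, the oestrogen sulfotransferase, which inactivates oestrogens, had the lowest KO level relative to WT in the set. Its log2 levels were 4.62 and 4.27 in WT against 1.06 and 0.47 in KO. The genotypes were 3.20 apart at their nearest pools, and both KO pools were close to the typical dim probe set. The mean was 4.44 ± 0.25 in WT and 0.77 ± 0.42 in KO (SD, n = 2 each), a difference of -3.68 ± 0.28 (SE). The KO mean exceeded the median of all probe sets by 0.22, where differences are compressed, so no fold is given.

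Sult2a8, which in the mouse adds sulfate to bile acids, was high in WT and remained well above the dim range in KO. Its log2 levels were 8.11 and 7.95 in WT against 5.40 and 6.09 in KO. The nearest pools of the 2 genotypes were 1.86 apart, more than the 0.69 between the KO pools. The difference of -2.28 ± 0.28 (SE) is a level 4.86-fold lower in KO.

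Sult1b1, which sulfates thyroid hormones, had log2 levels of 2.55 and 2.89 in WT and 0.86 and 1.58 in KO. The pools did not overlap, with KO pool 1 the lowest, and the difference was -1.50 ± 0.30 (SE). Sult1d1, a sulfotransferase of catecholamines such as dopamine, had log2 levels of 7.05 and 6.86 in WT and 5.58 and 6.49 in KO. Here the KO pools differed by 0.91, about as much as the genotypes, which were -0.91 ± 0.33 (SE) apart. Without KO pool 1 the Sult1d1 difference was -0.46 and without KO pool 2 it was -1.37. Its mean was 1.88-fold lower in KO over both pools.

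**Figure D1:**
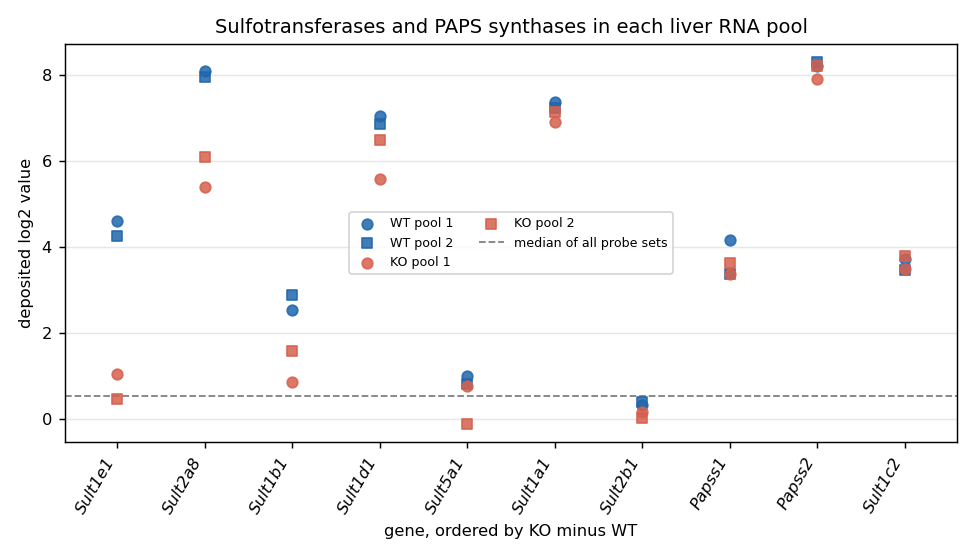
Deposited log2 value (vertical axis) of each of the 10 genes in the 4 pools, WT in blue and KO in red, with circles for pool 1 and squares for pool 2. The dashed line is the median of all probe sets (0.54). Sult1e1 in KO sits at 1.06 and 0.47 beside this line, Sult2a8 in KO at 5.40 and 6.09, and the points of Papss1, Papss2 and Sult1c2 interleave.

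The remaining sulfotransferases differed less. Sult1a1, the main phenol sulfotransferase, had log2 levels of 7.38 and 7.23 in WT and 6.92 and 7.14 in KO, a gap of 0.10 between the nearest pools. The difference was -0.28 ± 0.20 (SE). Sult1c2, a member of the 1C subfamily of phenol-sulfating enzymes, had log2 levels of 3.73 and 3.46 in WT and 3.48 and 3.80 in KO. Its pools overlapped, and its difference of 0.05 ± 0.22 (SE) was smaller than the 0.32 between the KO pools.

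Sult5a1 and Sult2b1 were close to or below the typical dim probe set in every pool. Sult5a1, an enzyme with no well-defined substrate, had log2 levels of 0.99 and 0.82 in WT and 0.78 and -0.11 in KO. KO pool 1 was within 0.03 of the nearest WT pool, and the difference of -0.57 ± 0.33 (SE) was -0.12 without KO pool 2. The Sult5a1 KO mean of 0.34 was below the median of all probe sets, so it passed the filter only through its WT pools. Sult2b1, which sulfates cholesterol and pregnenolone, had log2 levels of 0.33 and 0.41 in WT and 0.16 and 0.02 in KO. It was the 1 member below the filter on dim genes, and a level at this depth of signal does not show whether the gene is expressed.

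The synthases showed no separation of the genotypes. Papss2, the synthase known to predominate in liver, had log2 levels of 8.21 and 8.31 in WT and 7.92 and 8.21 in KO. The pools overlapped, and the difference was -0.19 ± 0.21 (SE), or -0.04 without KO pool 1 and -0.34 without KO pool 2. Papss1, the synthase expressed in most tissues, had log2 levels of 4.16 and 3.37 in WT and 3.37 and 3.63 in KO. The WT pools were 0.79 apart, and the difference of -0.26 ± 0.31 (SE) took the opposite sign, 0.13, without WT pool 1.

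Of the 9 members that passed the filter, 8 had a lower mean in KO and 6 had KO pools that were both below both WT pools. Sult5a1 is in both counts, though it passed the filter only through its WT pools and its nearest pools lay 0.03 apart. Among all 12458 tested genes, 48.4% had a lower KO mean and 19.5% had KO pools that lay below without overlap. With limma, 1 of the 9, Sult1e1, passed an adjusted p of 0.05, where 0.0482% of all tested genes did. That call was lost without each of the 4 pools (limma adjusted p from 0.145 to 0.602) and relative to the hepatocyte markers described below (limma adjusted p = 0.0539). With a variance that follows intensity, Sult1e1 and Sult2a8 passed, 2 of the 9 against 1.09% of all tested genes. The counts describe the values that chose the genes, so nothing is read from them.

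**Figure D2:**
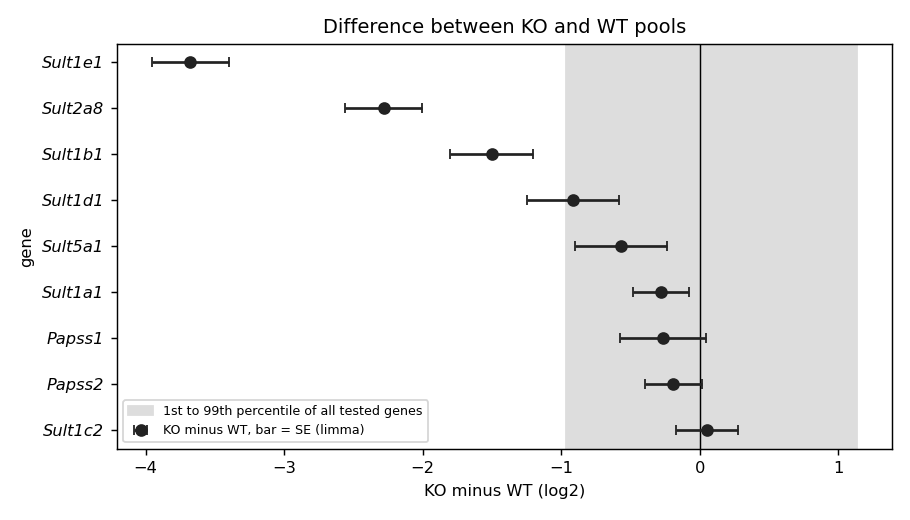
KO minus WT on the log2 scale (horizontal axis) for the 9 members that passed the filter on dim genes, with limma's SE as bars. The grey band spans the 1st to the 99th percentile of all tested genes (-0.96 to 1.14). Sult1e1, Sult2a8 and Sult1b1 lie below the band, and Sult1d1 at -0.91 lies just inside it.

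The 2 KO pools were not equal across the set. The KO pool 1 level was below that of KO pool 2 in 7 of the 10 genes, by 0.69 for Sult2a8, 0.72 for Sult1b1 and 0.91 for Sult1d1. Over all tested genes the median size of the difference between the KO pools was 0.26 and its 95th percentile was 0.95. With its sign, the median of KO pool 1 minus KO pool 2 over all tested genes was -0.07. The array as a whole thus leaned the same way, and the count is not read as a trait of the set. Sult1e1 and Sult5a1 went the other way, with KO pool 1 higher by 0.59 and 0.90, and Sult2b1 differed by 0.14. The WT pools of Sult1e1, Sult2a8, Sult1b1 and Sult1d1 differed by 0.15 to 0.35.

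Markers of hepatocytes and of other cells were read in the same pools. The mean log2 level of 19 hepatocyte markers was 8.55 and 8.47 in WT against 8.28 and 8.42 in KO, and their median difference was -0.13, with 14 lower and 5 higher in KO. In bulk tissue fewer cells of a type and less RNA per cell cannot be told apart. The albumin gene Alb was at 10.91 and 10.90 in WT and 10.70 and 10.81 in KO. Relative to the mean of the hepatocyte markers on each array, a scaling chosen after seeing the data that moved the median of all tested genes from 0.01 to 0.17, Sult1e1 was at -3.52, Sult2a8 at -2.12, Sult1b1 at -1.34 and Sult1d1 at -0.75. On that scale Sult1a1 was at -0.12 and Papss2 at -0.03. Median differences of the other lists were 0.70 for 10 stellate cell and fibroblast markers and 0.36 for 10 macrophage markers. They were 0.71 for 5 cholangiocyte, 0.06 for 8 endothelial and 0.36 for 7 lymphocyte markers. Higher and lower in KO were 8 and 2 macrophage, 4 and 1 cholangiocyte, 5 and 3 endothelial and 4 and 3 lymphocyte markers. The cholangiocyte median is that of Epcam, whose nearest pools lay 0.04 apart. The medians were 0.29 for 2 pancreatic acinar, -0.22 for 5 adipocyte and -0.43 for 3 intestinal epithelial markers. Here 1 and 1, 2 and 3, and 1 and 2 markers were higher and lower in KO. The adipocyte markers ran from -1.01 (Adipoq) to 0.67 (Cidec), and the intestinal median is that of Fabp2. Some markers passed the filter through 1 genotype only, for example Ctrb1, Krt7 and Cd8a through KO and Cd4 through WT. The stellate cell and fibroblast list was not uniform, with 8 markers higher and 2 lower in KO. Its KO pools lay above both WT pools for 6 of the 10 markers, as they did for 2760 of all 12458 tested genes. Lrat (0.11), Des (-0.09), Reln (-0.11) and Dcn (0.23) had overlapping pools. The defining markers Cftr, Cldn7, Ms4a1, Cpa1, Prss2, Vil1, Cdx2 and Muc2 lay below the filter. The part of these markers in the sulfotransferase differences was not tested.

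The chromosome 5 genes stand in the order Sult1b1, Sult1d1 and Sult1e1 with no other protein-coding gene with a probe set between them. The 5 such genes on each side were taken as neighbours after the values were seen. On the side of Sult1b1 are glucuronosyltransferases, which attach glucuronic acid to hormones and drugs. Ugt2a3 had log2 levels of 6.85 and 6.05 in WT and 5.29 and 6.14 in KO, and its pools overlapped. Ugt2b5 had log2 levels of 7.31 and 6.53 in WT and 6.11 and 6.44 in KO, and its nearest pools lay 0.09 apart. Their differences were -0.73 and -0.64, and that of Ugt2b36 was -0.42, with overlapping pools. Ugt2b37 and Ugt2b38 lay below the filter. On the side of Sult1e1 are the milk casein genes Csn1s1, Csn2, Csn1s2a and Csn1s2b and the gene Prr27, which were all below the filter, with differences from -0.10 to 0.43. The 3 sulfotransferases between these flanks were at -1.50, -0.91 and -3.68 in genome order.

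The Sult2a genes form a stretch on chromosome 7 in which Sult2a8 was the 1 gene above the filter. Sult2a1, Sult2a2, Sult2a3, Sult2a5, Sult2a6 and Sult2a7 ranged from -0.43 to 0.74 over the 4 pools. Several of these genes act on steroids such as dehydroepiandrosterone and on bile acids, and female mouse livers are known to express them more than male ones. Sult2a4 was at 1.58 in KO pool 1 and between -0.28 and -0.07 in the other pools, so that its pools overlapped. Sult2a genes resemble each other in sequence, so a probe set may pick up relatives. The Sult2a8 levels of 5.40 to 8.11 stood beside near-floor values at the probe sets of its relatives in the same pools.

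**Figure D3:**
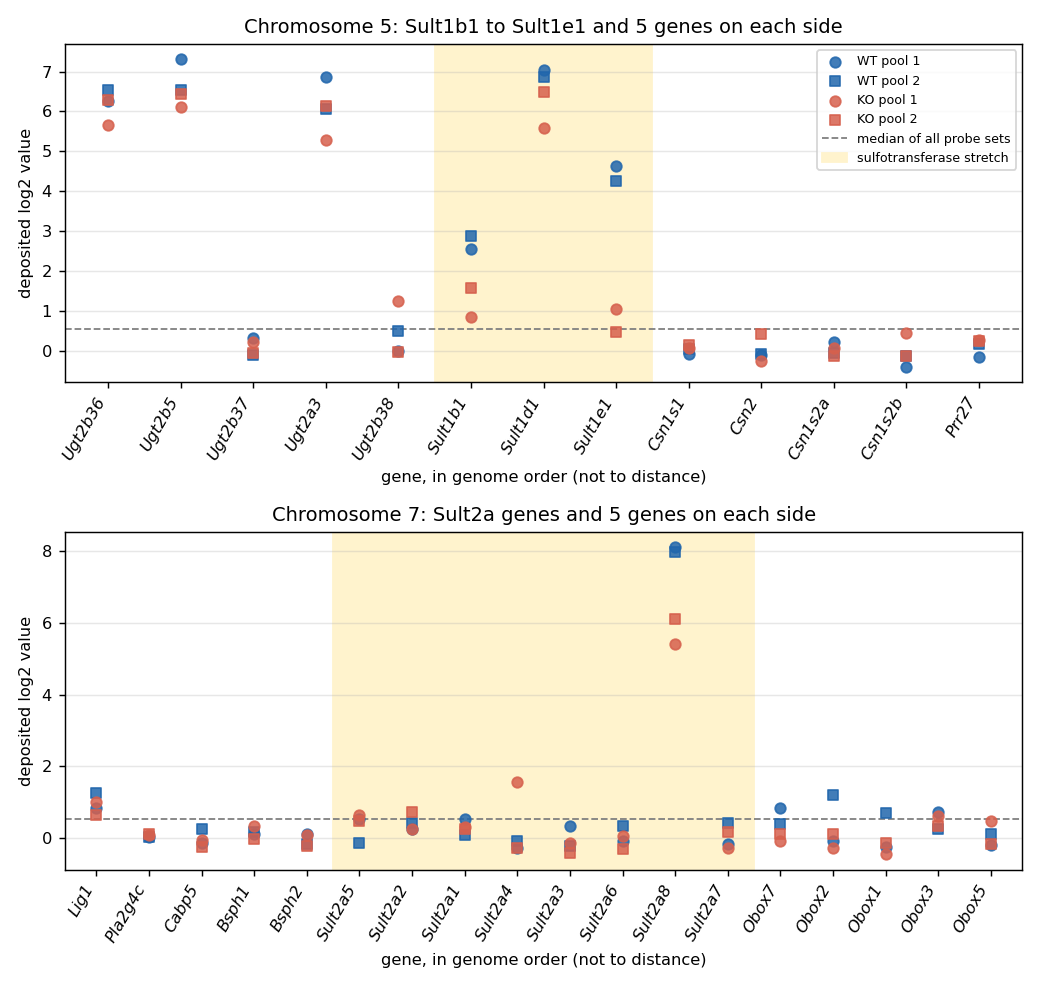
Deposited log2 values (vertical axis) of genes in genome order, not to distance, with WT in blue, KO in red, circles for pool 1 and squares for pool 2. The shaded stretch holds the sulfotransferases, and the dashed line is the median of all probe sets (0.54). On chromosome 5 the KO points lie below the WT points at all 3 sulfotransferases, and on chromosome 7 Sult2a8 is the 1 gene of the stretch above the filter.

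Of the other cytosolic sulfotransferases, 13 of 14 listed genes had a probe set with 1 symbol, and 0 of the 13 passed the filter on dim genes, so none was tested. Outside the Sult2a stretch, these were Sult1c1, Sult3a1, Sult3a2, Sult4a1, Sult6b1 and Sult6b2, with values from -0.34 to 0.59. Sult6b2 had log2 levels of 0.02 and 0.02 in WT and 0.59 and 0.33 in KO. Sult3a1, an amine sulfotransferase of female mouse liver, had 0.11 and -0.08 in WT and 0.01 and 0.46 in KO. A change at such levels may not be seen.

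The genes that supply sulfate, handle PAPS, remove sulfate groups or act on Sult genes had differences between -0.92 (Got1) and 1.51 (Gal3st2). With limma, 0 of 66 tested genes in the 5 lists below passed an adjusted p of 0.05, while limma with a variance that follows intensity called 2, Got1 and Nr1i3, both lower in KO. At an unadjusted p under 0.05 there were 8 genes, or 12.1% of the 66, against 10.3% of all tested genes. The median difference of all tested genes was 0.01.

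A list of cysteine metabolism genes, those that oxidise its sulfur to sulfate among them, had a median difference of -0.32. Of its 12 tested members, 11 were lower and 1 higher in KO. The list also holds genes that make cysteine and decarboxylases, so its median is not that of sulfate production alone. It was -0.38 without WT pool 1, -0.25 without WT pool 2, -0.23 without KO pool 1 and -0.45 without KO pool 2. Got1, the cytosolic aspartate aminotransferase, had log2 levels of 7.08 and 7.18 in WT and 5.96 and 6.48 in KO. Its difference was -0.92 ± 0.24 (SE; limma adjusted p = 0.338, or 0.0408 with a variance that follows intensity). Cbs, which starts the transsulfuration of homocysteine, was at 6.67 and 6.69 in WT and 6.10 and 6.31 in KO (limma adjusted p = 0.494). Gadl1, a decarboxylase of acidic amino acids, differed by -0.44 (limma adjusted p = 0.511) at levels near the median of all probe sets. The hepatocyte markers stood at -0.13 in the same pools, and the part of cell composition was not tested.

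Genes of PAPS transport, PAPS recycling and sulfate uptake had a median of 0.15 over 9 tested members, 6 higher and 3 lower. The sulfate transporter Slc26a2 had log2 levels of 2.01 and 1.84 in WT and 2.60 and 2.63 in KO, which did not overlap. Its difference was 0.69 ± 0.19 (SE; limma adjusted p = 0.364). Slc26a1, a sulfate and anion exchanger of hepatocytes, differed by 0.27 ± 0.19 (SE) and the sodium-coupled sulfate transporter Slc13a4 by 0.29 ± 0.21 (SE; limma adjusted p = 0.696 for both). The Slc13a4 means, 0.92 in WT and 1.21 in KO, were close to the median of all probe sets. The list median was -0.05 without KO pool 1, 0.10 without WT pool 1, 0.15 without WT pool 2 and 0.22 without KO pool 2.

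Sulfatases and their activators, which remove sulfate groups, had a median of 0.24 over 12 tested members, 10 higher and 2 lower. With WT pool 1 left out the value was 0.12, and with KO pool 1 left out it was 0.16. Without WT pool 2 it was 0.28, and without KO pool 2 it was 0.29. Galns, a lysosomal sulfatase of keratan sulfate, differed by 0.73 ± 0.25 (SE; limma adjusted p = 0.426). Arsa, the lysosomal sulfatase of sulfatides, differed by -0.41 ± 0.19 (SE; limma adjusted p = 0.551). Arsi differed by 0.37 ± 0.19 (SE; limma adjusted p = 0.591) at levels near the median of all probe sets. Its WT mean of 0.44 was below that median, so Arsi passed the filter, and entered the 10 higher, only through its KO pools.

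Golgi sulfotransferases use PAPS to sulfate glycans and proteins, and their median was 0.14 over 16 tested members, 11 higher and 5 lower. It was 0.07 without WT pool 1, 0.02 without WT pool 2, 0.22 without KO pool 1 and 0.20 without KO pool 2. Gal3st2, which sulfates galactose residues, was at 0.16 and 0.73 in WT and 2.35 and 1.56 in KO. The difference was 1.51 ± 0.34 (SE; limma adjusted p = 0.297). Its WT mean of 0.45 was below the median of all probe sets, so it passed the filter only through its KO pools. Chst14, which sulfates dermatan sulfate, differed by 0.77 ± 0.21 (SE; limma adjusted p = 0.349). Chst13, a chondroitin sulfotransferase, differed by -0.66 ± 0.19 (SE; limma adjusted p = 0.37). Stellate cell and fibroblast markers had a median of 0.70 in the same pools, 8 higher and 2 lower, and their part in these values was not tested.

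Transcription factors known to act on Sult genes had a median of -0.18 over 17 tested members, 6 higher and 11 lower. Leaving out WT pool 1 gave -0.10, WT pool 2 gave -0.22, KO pool 1 gave -0.09 and KO pool 2 gave -0.11. Nr1i3, the constitutive androstane receptor, had log2 levels of 7.43 and 7.47 in WT and 6.87 and 6.71 in KO, which did not overlap. Its difference was -0.66 ± 0.19 (SE; limma adjusted p = 0.372, or 0.033 with a variance that follows intensity). Ppara, the nuclear receptor of fatty acids, differed by -0.39 ± 0.20 (SE; limma adjusted p = 0.585) and Nfe2l2, the regulator of antioxidant genes, by 0.30 ± 0.19 (SE; limma adjusted p = 0.654).

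**Figure D4:**
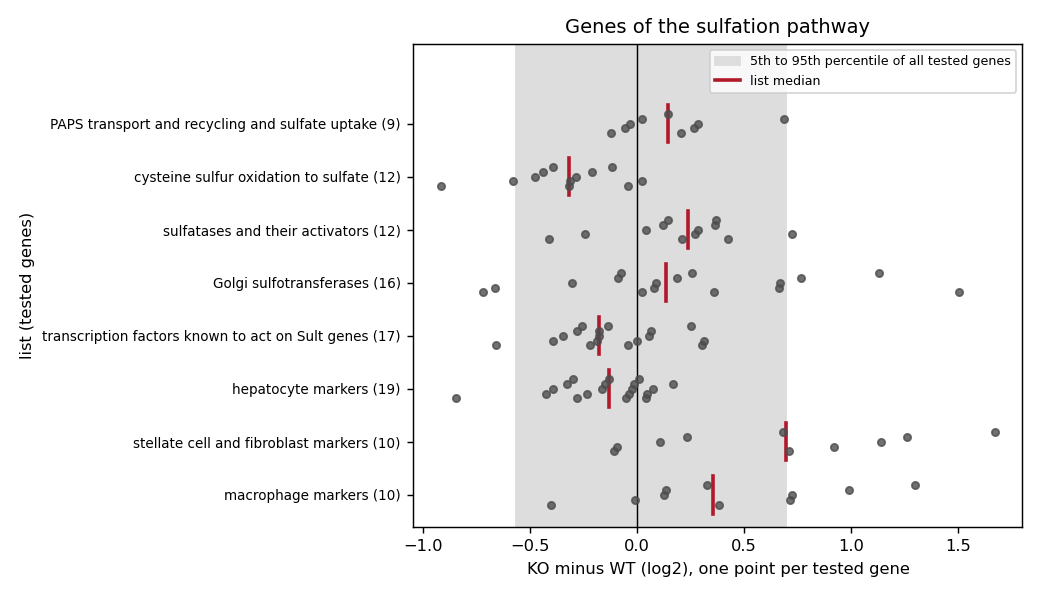
KO minus WT on the log2 scale (horizontal axis) for each tested gene of 5 sulfation lists and of 3 marker lists, with the number of tested genes in brackets and a red bar at each list's median. The grey band spans the 5th to the 95th percentile of all tested genes (-0.57 to 0.70). The list labelled cysteine sulfur oxidation to sulfate, which also holds genes that make cysteine, has a median of -0.32. The stellate cell and fibroblast markers have a median of 0.70, with 8 higher and 2 lower in KO.

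The profile of Sult1e1 was compared with those of tested genes by the Euclidean distance between their 4 values, each relative to the gene's own WT mean. Clone, predicted and small RNA names (Gm, Rik, LOC, Mir and Snor) were left out, for Sult1c2 also. The 5 nearest genes were Acot1, an acyl-CoA thioesterase, at a distance of 1.11, Cyp2c54, a cytochrome P450, at 1.14, Clec2h, a C-type lectin, at 1.41, Hsd3b5, a hydroxysteroid dehydrogenase, at 1.73, and Bmp10, a growth factor, at 1.77. Acot1 had log2 levels of 5.61 and 5.18 in WT and 3.01 and 1.91 in KO, with KO pool 2 the lower, as for Sult1e1 and Hsd3b5. Cyp2c54, Clec2h and Bmp10 had KO pool 1 as the lower. Sult1c2, the 1 member with a higher mean in KO, had Cfl2, Ddost, Rpa2, Snx6 and Cst3 nearest, at distances of 0.02 to 0.03, all with differences of 0.03 to 0.06 and overlapping pools. With 4 arrays, likeness to Sult1e1 rests mainly on the size of the difference between the genotypes. Likeness to Sult1c2 rests mainly on differences between pools of the same genotype, such as KO pool 1 minus KO pool 2 (-0.32, against -0.34 for Cfl2).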

How the data were processed

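Gene expression was measured in 4 liver RNA pools, 2 WT and 2 KO, from 400 ng of RNA per the labels' protocols. The deposited values are log2 expression of 41345 probe sets, made by the authors with oligo, RMA and limma per the submitters' processing notes. The sources used here do not give versions, order of steps, genome build or annotation. Values ran from -1.12 to 11.9 with array medians of 0.52 to 0.64, so the zero point is unknown. No batch or detection information was used here, and the number of arrays limits the precision.

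Through the platform annotation 23521 probe sets had 1 symbol, 1814 several and 16010 none. Entrez identifiers of 23328 were matched to RefSeq (GRCm38.p6), which changed 0 symbols. The probe set with the highest mean was kept per gene, and 12458 genes whose mean was no lower than the median of probe set means (0.54) were tested in R 4.3.3 with limma 3.58.1 (eBayes after lmFit, no covariate, Benjamini-Hochberg adjustment, 0.05). On simulated data drawn from limma's own variance model, the fit returned on average the changes put in. That is no check of the model, or of the calls, on these arrays. A comparison of 2 pools with 2 cannot reach 0.05 in an exact permutation test. The members, lists, motifs and rule for named genes were chosen with earlier results of these data known. Named are Nrg4, the members, other Sult genes, the 3 genes of each pathway list with the smallest p or any called, and the 5 genes nearest in profile to the member with the largest decrease and to that with the largest increase. The genes nearest in profile leave out clone, predicted and small RNA names. Chromosome neighbours and single marker genes were chosen after their values were seen. Alternatives changed the scaling, variance model, filter, probe set rule, replicate block and pools.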

Additional observations from a re-analysis of the deposited data

How the results depend on the processing

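The 6 genes called by limma among all tested genes became 136 with a variance that follows intensity and 2 with the replicate block, and 0 without any 1 of the 4 pools (906 to 1314 at an unadjusted p under 0.05). The number of pathway genes called went from 0 to 2 with a variance that follows intensity and stayed 0 in the other settings, without any pool included. The deviations of same-numbered pools correlated at r = -0.04 across tested genes, so the numbers were not taken to pair the pools. In this balanced layout the replicate block cannot change a difference, only its SE and p. Changes of the variance model, filter, probe set rule and block could not move a member's difference. Under median centring, quantile normalization and the scaling to hepatocyte markers, Sult1e1 lay between -3.72 and -3.52 and Sult2a8 between -2.33 and -2.12. Without 1 pool Sult1e1 lay between -3.97 and -3.38, Sult2a8 between -2.63 and -1.94, Sult1b1 between -1.86 and -1.14 and Sult1d1 between -1.37 and -0.46. The call of Sult1e1 was lost without each of the 4 pools and relative to the hepatocyte markers. Sult1c2 was below 0 in 2 of 4 fits without a pool and Papss1 above 0 in 1. Sult2b1 could be fitted with no filter. Signal over background limits what Sult2b1, Sult5a1 and the other Sult genes can show.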
